A study of Homo sapiens with 8 samples.

Results

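The comparison described here is 12 h of 1 µM SAHA against no drug in TR1, a Jurkat clone resistant to TRAIL. It rests on 4 of the 8 arrays of the series, 2 per group, and on the 12670 of 22184 probes that had a detection p-value below 0.05 on at least 2 of these 4 arrays. Jurkat is a human T cell leukaemia line. TR1 was picked after exposure of Jurkat to 1000 ng/mL TRAIL for 12 weeks, so both groups compared are the same clone with the same history, and they differ by the drug alone as far as the labels say. SAHA (vorinostat) was given at 1 µM for 12 h to the treated group, and the control group is labelled untreated. The other 4 arrays, 2 of the TRAIL-sensitive parent line without drug (WT) and 2 of TR1 with 0.5 µM SAHA for 12 h, helped to estimate the spread and are quoted beside some values. The duplicates are called biological in the labels, which do not say how the cultures were kept apart, so p-values measure only the spread between such samples. A result from TR1 is a result from 1 clone.

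Histone deacetylases remove acetyl groups from lysines of histones and of many other proteins, usually as part of corepressor complexes, and inhibitors such as SAHA raise histone acetylation and move the transcription of many genes both up and down. TRAIL belongs to the tumour necrosis factor ligands. It binds the death receptors encoded by TNFRSF10A and TNFRSF10B, which recruit FADD and caspase 8 into a death-inducing signalling complex, and c-FLIP (CFLAR) competes with caspase 8 there. Downstream, proteins of the BCL2 family set the permeability of the mitochondrial outer membrane, and the inhibitors of apoptosis hold caspases in check.

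Expression was read on Illumina HumanRef-8 BeadChips as probe intensities, and all levels below are background-corrected, quantile-normalized log2 intensities. A probe is said to have risen or fallen where limma's Benjamini-Hochberg adjusted p, over all 12670 probes, was below 0.05. Levels are given in the order array A, array B for each group, and the arrays are called control A and B (untreated TR1) and SAHA A and B (1 µM). Between 11922 and 12968 probes were detected on each of the 4 arrays, and duplicates differed with an SD over probes of 0.21 in untreated TR1 and 0.23 at 1 µM. The probes nearest the detection limit were dim: those detected on exactly 2 of the 4 arrays numbered 802 with a median level of 5.15, and the 918 detected on 1 array and left out had a median of 4.98. Gene names came from the platform annotation, and a gene with several probes is described by its brightest.

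Of the T cell markers, CD3E, CD3G, CD247, CD7, CD2, CD28 and LCK were detected on all 4 arrays, CD3D was dim but detected, and CD4 and CD8A were not detected on any. Many markers of other cell types were undetected on all 4 arrays, which held for 5 of 9 myeloid, 4 of 7 erythroid, 5 of 8 epithelial and 2 of 8 B cell markers that had a probe. HBB, CD14, MPO, MS4A1 (CD20) and EPCAM were among the undetected ones.

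After 12 h at 1 µM, a large part of the measured transcripts stood at another level. Of the 12670 probes, 3489 passed the test (27.5%), of which 1744 rose (13.8%) and 1745 fell (13.8%). For every called probe both treated arrays lay on the same side of both untreated arrays. A call from 2 arrays per group all but requires this, so nothing is read from it. Most changes were modest, with a median of 1.53-fold among the rises and 1.48-fold among the falls. Rises were the larger ones: 282 probes rose at least 2-fold (2.23%) and 173 fell at least 2-fold (1.37%). Counted by gene through the brightest probe, 1495 of 10386 genes rose (14.4%) and 1458 fell (14.0%). The counts of every gene list below are to be read beside these shares. Whether rises and falls came out even varied with the normalization. Under scaling of each array to 1 median, 1761 rose and 1258 fell (58.3% up), with the median taken over the tested probes only, 1435 rose and 2141 fell (40.1% up), and with the signals scaled before background correction, 2123 rose and 853 fell (71.3% up), the median difference of all tested probes being -0.02, 0.01, -0.08 and 0.11 in the 4 settings. All 3489 differences kept their sign in each of these settings. For the gene lists below, ranges given over the scalings span these 4 settings and also a fit without background correction. The total was 2091 and 1789 without control A or B, and 2355 and 2231 without SAHA A or B.

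**Figure D1:**
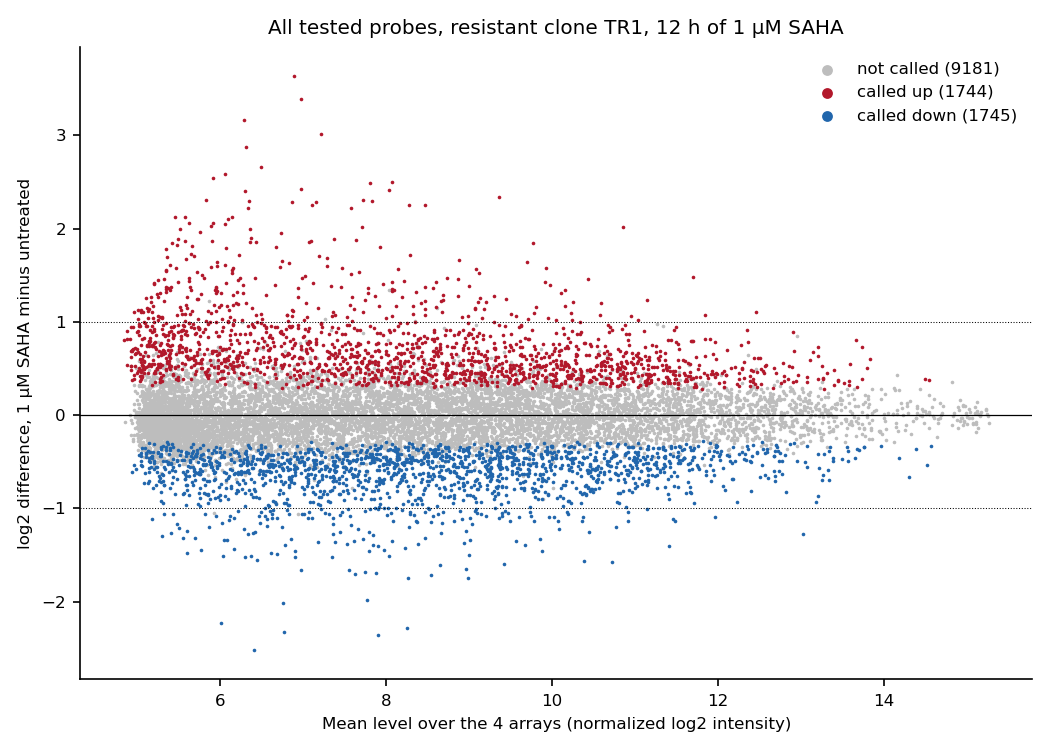
Each point is 1 of the 12670 tested probes, with its mean normalized log2 intensity over the 4 arrays on the x axis and the log2 difference between 1 µM SAHA and untreated TR1 on the y axis; red points rose (1744), blue points fell (1745), grey points were not called, and dotted lines mark 2-fold. The tallest rises lie among dim probes, while falls below the 2-fold line lie at all but the brightest levels.

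The balance of large rises and falls varied with brightness. The probes were ranked by their mean level over all 8 arrays into 5 equal bins. In the dimmest bin 78 rose and 9 fell at least 2-fold, and in the second 89 rose and 48 fell. In the middle bin 65 rose and 57 fell, in the fourth 40 rose and 43 fell, and in the brightest 10 rose and 16 fell. The arrays compared enter this mean, and a probe near background has little room to fall. Part of the tilt among dim probes is therefore built in, and nothing is read from it. Where all 4 arrays detected the probe, 175 rose and 160 fell at least 2-fold among 11223. A further 80 of the 282 large rises were among the 334 tested probes that neither untreated array detected. Such probes were tested only because both treated arrays detected them, so the filter set their direction and nothing is read from that count. Likewise, 91 tested probes were undetected on both 1 µM arrays, and their direction too was set by the filter. A stricter limit asked for a detection p of 0.05 or more on both arrays of a group and below 0.01 on both of the other. By it, 125 called probes of the 334 appeared with the drug and 8 of the 91 disappeared, and nothing is read from their direction. The latter count was 27 without control B and 20 without SAHA B.

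The largest rises included a steroid-metabolizing enzyme, a phosphatase subunit, a cytokine-signalling transcription factor and several genes best known from neurons. AKR1C3, an aldo-keto reductase that acts on steroids and prostaglandins, stood at 5.22 and 4.93 without drug, detected on neither array, and at 8.77 and 8.66 with it. This was the largest change of all probes with a gene name, at least 11.6-fold (adjusted p = 2.52e-05), and AKR1C genes are near-identical, so the probe may also read its relatives. TMEM158, a membrane protein first found as induced by oncogenic Ras, went from 5.19 and 5.37 to 8.67 and 8.68, a difference of 3.39 ± 0.10 (SE). PPP2R2B, a regulatory subunit of protein phosphatase 2A, was undetected at 4.69 and 4.72 and reached 7.84 and 7.90, at least 6.50-fold higher.

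STAT4, the transcription factor of interleukin-12 signalling, rose from 5.67 and 5.76 to 8.57 and 8.88, 8.07-fold (adjusted p = 1.50e-05). Its mean in WT was 7.86, so untreated TR1 lay below the parent and treated TR1 above it. DHRS2, a mitochondrial and nuclear short-chain dehydrogenase, was undetected at 5.15 and 4.60 and reached 7.81 and 7.70, at least 5.97-fold higher. IGF2BP2, an mRNA-binding protein, rose from 5.26 and 5.06 to 7.81 and 7.84, and SEPTIN4, a septin with a splice form that binds the caspase inhibitor XIAP, from 6.48 and 6.66 to 9.18 and 8.95. That the groups lay apart in these genes was required by the rule for naming them. TNFRSF19, a receptor of the tumour necrosis factor family, rose from an undetected 5.21 and 4.98 to 7.49 and 7.52, at least 5.03-fold. FSCN1, which bundles actin filaments, was already bright at 8.16 and 8.24 and reached 10.50 and 10.57.

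The other members of the 15 largest rises were PDGFRL (at least 4.51-fold), PRPH (peripherin, a neuronal intermediate filament, at least 4.03-fold), the histone gene H2BC5 (5.66-fold by the dimmer of its probes), the LIM-domain gene CRIP2 (5.38-fold), the endophilin SH3GL3 (5.33-fold) and the neuronal calcium sensor HPCAL4 (at least 3.51-fold). All 15 were called at 0.5 µM too, with smaller differences: 2.92 against 3.64 for AKR1C3, 1.34 against 3.39 for TMEM158, and 2.08 against 3.01 for STAT4. Both doses were compared with the same untreated arrays.

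The 15 largest falls came from 13 genes, among them surface receptors, signalling proteins, a subunit of RNA polymerase I and a mitochondrial enzyme. IGLL1, which encodes part of the surrogate light chain of the pre-B cell receptor, fell on both of its probes, from 7.60 and 7.74 to 5.22 and 5.07 on the first and from 9.10 and 9.08 to 6.78 and 6.67 on the second (5.74-fold and 5.13-fold lower). IGLL1 resembles other immunoglobulin light chain genes, and its probes may read them as well. CXCR3, a chemokine receptor of activated T cells, fell from 8.15 and 7.73 to 5.56 and 5.66, 5.02-fold. RGL4, a relative of the exchange factors for the GTPase Ral, fell from 9.41 and 9.39 to 7.15 and 7.08, and RASGRP2, which activates Rap and Ras in blood cells, from 8.93 and 8.61 to 6.82 and 6.75. PVRIG, an inhibitory receptor of T and natural killer cells, fell from 9.04 and 9.24 to 7.35 and 7.43.

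PLD6, a mitochondrial phospholipase, was 4.04-fold lower and BIN1, a membrane-bending protein that also binds MYC, 3.26-fold lower. POLR1G, a subunit of RNA polymerase I, went from 7.78 and 7.83 to 6.05 and 6.24, and TSHR, the receptor of thyroid-stimulating hormone, from 9.82 and 9.77 to 8.17 and 8.11. GTF2IRD2 fell on both of its probes (3.35-fold and 3.20-fold), and since the genome holds a near-identical copy of it, which copy changed cannot be told. SH3TC1, LKAAEAR1 and MINAR1 completed the 15 probes, at 3.29-fold, 3.23-fold and 3.16-fold lower. Over probes, these 15 falls spanned 1.65 to 2.52 on the log2 scale and the 15 rises 2.31 to 3.64, and none of the 30 lost its call on leaving out any 1 of the 4 arrays.

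**Figure D2:**
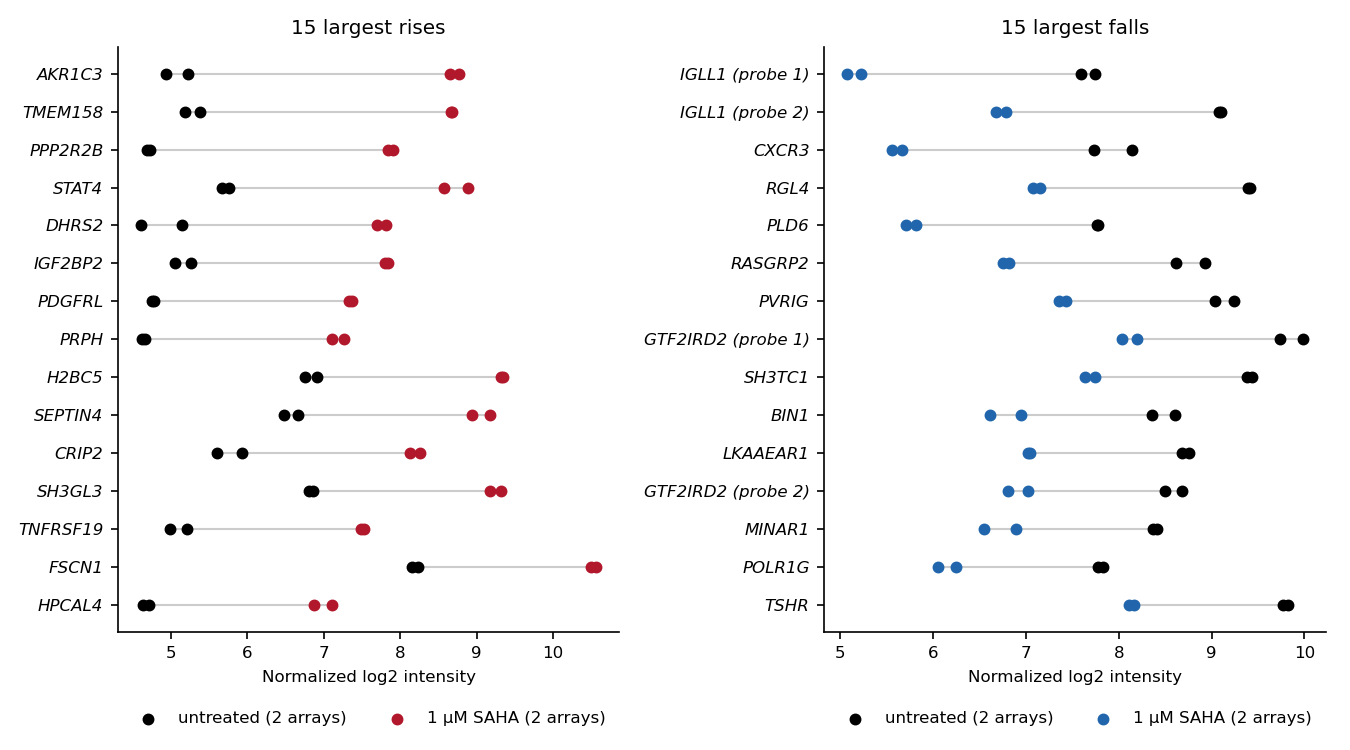
Normalized log2 intensity (x axis) of the 15 probes with the largest rise (left) and the 15 with the largest fall (right) among called probes with a gene name, each point being 1 array, black for untreated TR1 and coloured for 1 µM SAHA. The groups lie apart in every row, as the choice of probes required, and duplicates lie close together compared with the gap between groups.

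Both TRAIL death receptors rose. TNFRSF10A (DR4) was undetected without drug at 4.73 and 4.72 and reached 6.11 and 6.04, at least 1.87-fold higher (adjusted p = 9.80e-05). TNFRSF10B (DR5) was bright without drug at 9.55 and 9.37 and rose to 10.06 and 10.07, 1.52-fold (SE of the log2 difference 0.12, adjusted p = 0.00759). At 0.5 µM the difference was 0.69 for TNFRSF10A (adjusted p = 0.00492) and 0.27 for TNFRSF10B (adjusted p = 0.212). TNFRSF21 (DR6), a death-domain receptor with another ligand, rose from 10.78 and 10.75 to 11.25 and 11.26. TNFRSF10A kept its call whichever array was left out, TNFRSF10B had an adjusted p of 0.0590 without control B, and TNFRSF21 missed the threshold without any 1 of the 4 arrays, with adjusted p-values of 0.0620 to 0.0852.

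The ligand itself did not pass the test: TNFSF10 (TRAIL) stood at 6.18 and 6.52 without drug and 6.48 and 6.85 with it, so the groups overlapped (adjusted p = 0.222). TNFRSF1A, TNFRSF25 and the soluble decoy TNFRSF11B differed by -0.24, 0.31 and -0.06 and were not called. The membrane decoys TNFRSF10C and TNFRSF10D, and FASLG and TNF, were not detected on 2 of the 4 arrays and not tested. In all, 3 of the 7 tested ligands and receptors rose and 0 fell, with a median difference of 0.31. Of all tested genes 14.4% rose and 14.0% fell, and the median over all tested probes was -0.02. TNFRSF10A was tested only through the treated arrays. Among the 6 ligands and receptors detected in both groups 2 rose and 0 fell.

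Inside the death-inducing signalling complex the inhibitor moved and the activators were not called. CFLAR fell from 7.34 and 7.09 to 6.59 and 6.33, 1.68-fold (adjusted p = 0.0152), but missed the threshold without control A (adjusted p = 0.0889) or SAHA B (adjusted p = 0.0887). Its mean in WT was lower still, at 6.17. The adaptor FADD stood at 10.17 and 10.29 without drug and 10.24 and 10.24 with it, a difference of 0.01 ± 0.10 (SE). CASP8, the initiator caspase, differed by 0.31 ± 0.13 (adjusted p = 0.115), and its second probe was not called either. CASP10, CASP2, CASP9, CASP6 and TRADD differed by -0.20, -0.27, 0.08, -0.51 and -0.32 and were not called, so 0 of these 8 genes rose and 1 fell.

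In the BCL2 family 3 of 15 tested genes rose and 3 fell, near the shares over all tested genes (14.4% and 14.0%). BH3-only proteins promote apoptosis by binding the protective members. Among them HRK rose from 5.48 and 5.76 to 7.08 and 6.77 (2.47-fold, adjusted p = 0.000672) and BMF from 5.27 and 4.75 to 6.13 and 6.25 (2.27-fold, adjusted p = 0.00395), whereas BIK fell from 8.99 and 9.04 to 8.38 and 8.33 and BID, which links death receptors to mitochondria, from 9.94 and 9.92 to 9.27 and 9.29, although its second probe was not called. The pore-forming BAX fell as well, from 6.47 and 6.49 to 5.83 and 5.87, with adjusted p-values of 0.0513, 0.0610 and 0.0545 without control A or B or SAHA A, and its call was also lost when signals were scaled before background correction. BCL2L2 (BCL-w), a protective member, rose 2.68-fold, from 5.76 and 4.96 to 6.83 and 6.74.

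The main protective genes were not called: BCL2 differed by -0.35 ± 0.15 (SE), BCL2L1 (BCL-xL) by -0.16 ± 0.11 on its brightest probe and MCL1 by -0.07 ± 0.34. A second, dimmer BCL2L1 probe fell, so the probes of this gene disagreed. The untreated duplicates of MCL1 alone stood far apart, at 7.29 and 8.10. BCL2L11 (BIM), BBC3 (PUMA), BAD, BAK1, BOK and BCL2A1 lay between -0.33 and 0.11 and were not called either.

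Further downstream, the apoptosome scaffold APAF1 rose from 9.41 and 9.58 to 10.08 and 10.25 (1.59-fold), and the mitochondrial nuclease ENDOG fell from 9.82 and 9.92 to 8.95 and 8.88 (1.94-fold, adjusted p = 0.000512). BIRC5 (survivin) fell 1.33-fold. ENDOG kept its call whichever array was left out. APAF1 missed it without control A (adjusted p = 0.0554) or SAHA B (0.0520), and BIRC5 without control B or SAHA B (0.203 and 0.182) and in 3 other settings. The caspase inhibitors XIAP (-0.31), BIRC2 (0.46) and BIRC6 (-0.29) and the mitochondrial proteins DIABLO (0.11), HTRA2 (-0.16), CYCS (0.07) and AIFM1 (0.13) were not called.

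**Figure D3:**
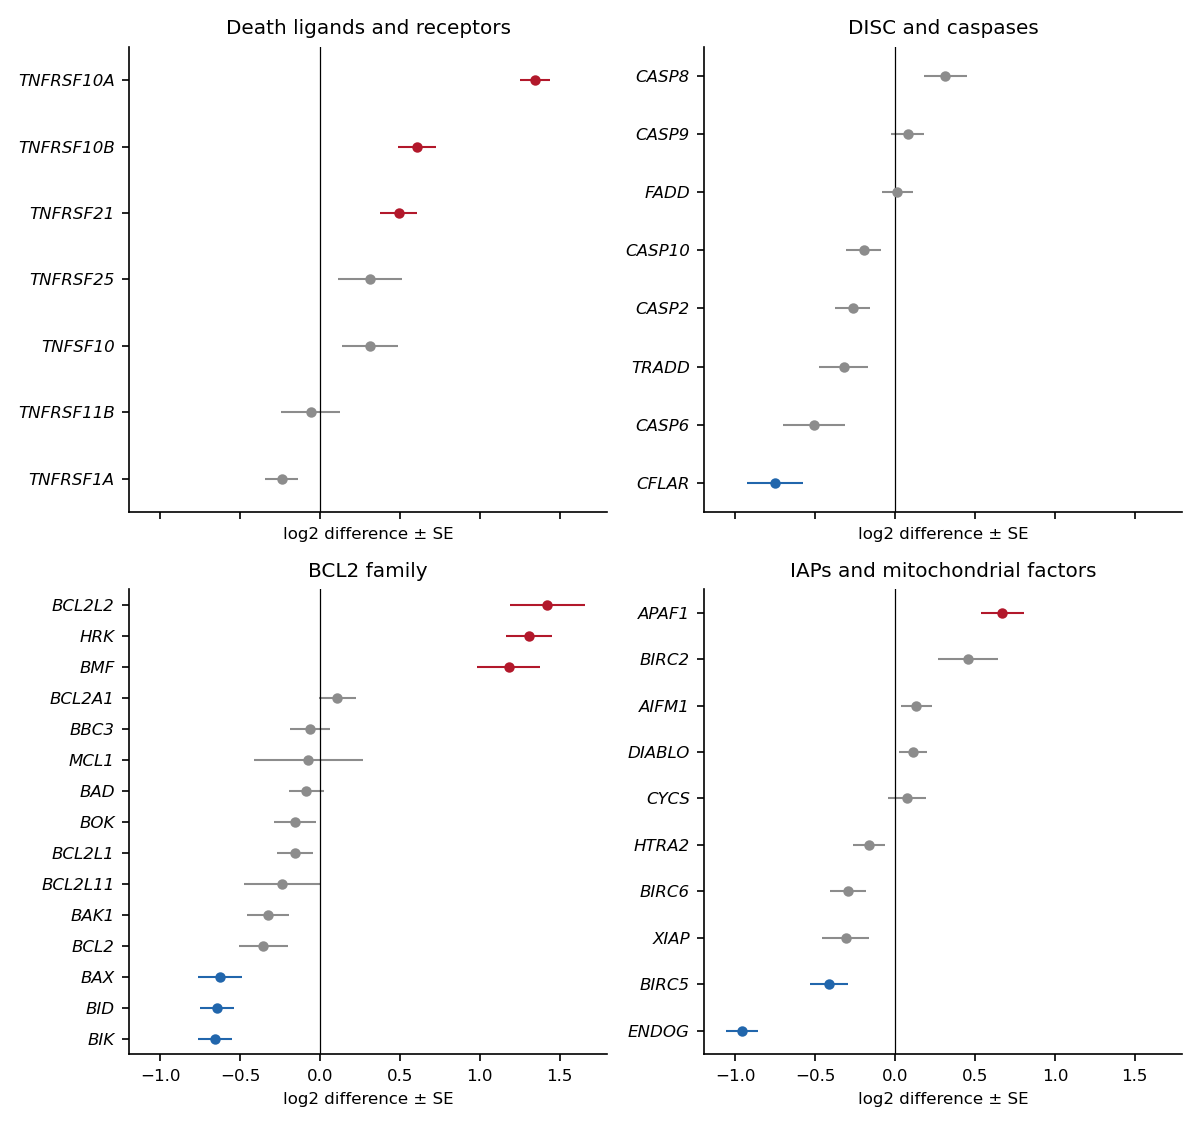
Log2 difference between 1 µM SAHA and untreated TR1 with its SE for the tested genes of the extrinsic and mitochondrial death pathways, red where the gene rose, blue where it fell and grey where it was not called. TNFRSF10A and TNFRSF10B lie to the right of 0 and CFLAR to the left, while red and blue points occur side by side in the BCL2 family.

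Genes of the histone deacetylase family were mostly not called. HDAC1, HDAC2, HDAC6 and HDAC8 differed by 0.13, 0.28, 0.20 and 0.21, and HDAC4, HDAC5 and HDAC11 by -0.25, 0.02 and 0.28. HDAC3, the catalytic subunit of the NCOR and SMRT corepressors, rose 1.49-fold, from 10.65 and 10.57 to 11.19 and 11.18 (adjusted p = 0.00861). HDAC9, a class IIa member, rose from 4.74 and 5.28 to 5.90 and 6.28, 2.12-fold. The call of HDAC3 was lost without control B (adjusted p = 0.0592), and that of HDAC9 without control A (0.0514) or SAHA B (0.0557). The acetyltransferases KAT2B (PCAF) and KAT2A (GCN5), close relatives, went opposite ways: KAT2B rose 1.80-fold, from 8.91 and 8.75 to 9.69 and 9.67, and KAT2A fell 1.61-fold, from 11.12 and 10.98 to 10.46 and 10.27. KAT2A missed the threshold without control A (0.0765) or SAHA B (0.0782). Among the NAD-dependent sirtuins, which SAHA does not inhibit, SIRT4 rose 1.70-fold. The shares over all tested genes were 14.4% up and 14.0% down. By list, 2 of 9 deacetylases rose and 0 fell, 1 of 10 acetyltransferases rose and 2 fell (0 to 1 falls with 1 array left out), 1 of 5 sirtuins rose and 1 fell, and 3 of 13 corepressor subunits rose and 4 fell, with 0 or 1 rise and 0 to 3 falls among the last with 1 array left out.

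Histone genes moved as single genes rather than as a family, with 4 of 18 up and 1 down, against 14.4% and 14.0% over all genes. Besides H2BC5, whose brighter probe went from 7.17 and 7.29 to 8.56 and 8.45, the linker histone gene H1-10 rose from 9.88 and 10.10 to 11.11 and 11.27 (2.30-fold) and H3-3B, a gene of the replacement variant H3.3, from 10.42 and 10.30 to 10.94 and 11.10 (1.58-fold). Of the enzymes and readers of methylation, 1 of 14 rose and 2 fell: EZH2, which methylates lysine 27 of histone H3, rose 1.41-fold, and UHRF1 and SUV39H1 fell 1.41-fold and 1.38-fold, and each of these 3 calls was lost without control B (adjusted p-values of 0.0691, 0.0937 and 0.0590). EZH2 was called without any other single array, UHRF1 was also lost without SAHA A (0.0657), and SUV39H1 without control A (0.0676) or SAHA B (0.0635) and under scaling before background correction.

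CDKN1A (p21) is an inhibitor of cyclin-dependent kinases and a classical target of deacetylase inhibitors. It rose from 7.31 and 7.39 to 9.66 and 9.55, 4.77-fold (SE of the log2 difference 0.17, adjusted p = 0.000140), and its mean at 0.5 µM was 8.68. CDKN3, a phosphatase acting on cyclin-dependent kinases, rose 1.47-fold, with an adjusted p of 0.0529 without control A. CDKN1B (p27), CDKN1C and CDKN2D differed by 0.36, 0.10 and 0.08 and were not called.

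Of the D-type cyclins, which drive the G1 phase, CCND1 and CCND2 appeared, both tested only through the treated arrays. CCND1 was undetected at 4.40 on both untreated arrays and reached 6.71 and 6.34, at least 2.55-fold higher, and CCND2 rose from an undetected 4.52 on both arrays to 6.36 and 6.68, at least 2.54-fold. Their means in WT were 4.43 and 4.52, close to untreated TR1. CDK1, the kinase of mitotic entry, rose 1.63-fold (adjusted p = 0.00592). The shares over all tested genes were 14.4% up and 14.0% down. Over the 30 cyclins, kinases and E2F factors, 8 rose and 5 fell (6 and 5 of the 28 detected in both groups), but 3 to 4 rises and 1 to 4 falls were called with 1 array left out.

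Of 30 tested mitotic genes 12 rose, 1 fell and 17 were not called, with a median difference of 0.23, against 14.4% rises over all genes. ANLN (anillin, of the contractile ring) rose 1.65-fold, KIF11 (the spindle kinesin Eg5) from 10.49 and 10.61 to 11.12 and 11.32 (1.59-fold, adjusted p = 0.00335) and the checkpoint kinase BUB1 1.54-fold. UBE2C, the ubiquitin-conjugating enzyme of the anaphase-promoting complex, went the other way, from 7.76 and 7.56 to 6.58 and 6.54 (2.15-fold lower, adjusted p = 0.000718). The count of rises lay between 9 and 13 over the 4 scalings and between 4 and 8 with 1 array left out. ANLN missed the threshold without SAHA B (adjusted p = 0.0506) and BUB1 without control A (0.0551). Of 38 genes of DNA replication and nucleotide synthesis 2 rose and 4 fell. MCM5, of the replicative helicase, fell 1.65-fold and CTPS1, which makes cytidine nucleotides, 1.60-fold. For this list 1 to 4 rises and 2 to 5 falls were called over the 4 scalings, and 0 to 1 rises and 2 to 3 falls with 1 array left out. UNG, which removes uracil from DNA, fell 1.78-fold, from 12.01 and 12.06 to 11.24 and 11.17, and was 1 of 3 falls and 0 rises among 18 genes of the DNA damage response, a list with 1 fall on leaving out any 1 array.

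Among the gene lists examined, ribosome biogenesis had the highest share of falls. MYC, which drives ribosome biogenesis and growth, fell 2.12-fold, from 12.43 and 12.59 to 11.43 and 11.42 (adjusted p = 0.000271), with a mean of 11.78 at 0.5 µM. Its antagonist MNT fell 1.60-fold. MXI1, another partner of MAX, rose 1.46-fold, a call lost without control A or SAHA A (adjusted p-values of 0.0652 and 0.0548). Of 21 tested genes of the nucleolus and of ribosome assembly, 17 fell and 0 rose, against 14.0% falls over all genes, and their median difference was -0.75. The count of falls was 13 to 19 over the 4 scalings and 10 to 12 with 1 array left out.

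RRP12, a factor of ribosomal subunit export, fell from 9.77 and 9.74 to 8.16 and 8.34, 2.84-fold (adjusted p = 9.65e-05). NOP16 fell from 11.10 and 11.04 to 9.85 and 9.79 (2.38-fold), RRP9, a protein of the U3 small nucleolar ribonucleoprotein, from 10.23 and 10.34 to 9.20 and 9.21 (2.11-fold), and MRTO4, which acts in large-subunit assembly, from 9.66 and 9.70 to 8.77 and 8.47 (2.08-fold). The groups lay apart in these 4 genes, which the rule for naming genes required. POLR1C, a subunit shared by RNA polymerases I and III, and RRS1 were singled out after their values were seen: POLR1C went from 11.66 and 11.64 to 10.69 and 10.60 and RRS1 from 9.85 and 9.77 to 8.78 and 8.85. FBL (fibrillarin) stood at 12.34 and 12.21 without drug and 12.20 and 12.21 with it, and NOP58, WDR12 and ODC1 were the other members not called. ODC1 encodes an enzyme of polyamine synthesis, so the list was not purely one of the nucleolus and ribosome assembly.

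Promoters are shown for genes that moved together or strongly and whose sequence was at hand: 3 of the ribosome assembly genes that fell and NOTCH1, which fell as well, beside CDKN1A and AKR1C3, which rose. Each runs from 250 bases before to 50 after the annotated start, 5′ to 3′ on the gene's strand, from RefSeq (GRCh38.p14). Capitals mark GGGCGG (the GC box), CACGTG (the E-box, its own reverse complement) and TATAAA, each searched on both strands, so that TTTATA is TATAAA on the other strand.
RRP9 (chr3:51941855-51942154, minus strand): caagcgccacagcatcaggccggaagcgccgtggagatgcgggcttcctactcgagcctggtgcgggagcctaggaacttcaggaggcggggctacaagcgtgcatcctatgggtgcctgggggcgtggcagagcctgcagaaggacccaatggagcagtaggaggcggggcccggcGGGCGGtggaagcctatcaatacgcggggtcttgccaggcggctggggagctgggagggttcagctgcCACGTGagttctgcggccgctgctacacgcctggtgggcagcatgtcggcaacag
MRTO4 (chr1:19251555-19251854, plus strand): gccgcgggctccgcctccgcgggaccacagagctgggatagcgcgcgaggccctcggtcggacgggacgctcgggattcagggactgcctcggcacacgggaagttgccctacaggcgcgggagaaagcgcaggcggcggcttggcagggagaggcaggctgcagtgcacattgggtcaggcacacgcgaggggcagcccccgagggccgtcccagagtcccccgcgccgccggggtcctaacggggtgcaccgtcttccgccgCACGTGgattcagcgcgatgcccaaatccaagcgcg
NOP16 (chr5:176388549-176388848, minus strand): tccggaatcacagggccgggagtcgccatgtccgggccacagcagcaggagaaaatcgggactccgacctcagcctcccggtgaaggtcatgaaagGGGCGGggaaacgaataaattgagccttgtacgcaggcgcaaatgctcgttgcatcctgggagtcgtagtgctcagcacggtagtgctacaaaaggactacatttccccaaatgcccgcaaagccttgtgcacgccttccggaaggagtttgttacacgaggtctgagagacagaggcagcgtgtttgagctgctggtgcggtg
NOTCH1 (chr9:136545999-136546298, minus strand): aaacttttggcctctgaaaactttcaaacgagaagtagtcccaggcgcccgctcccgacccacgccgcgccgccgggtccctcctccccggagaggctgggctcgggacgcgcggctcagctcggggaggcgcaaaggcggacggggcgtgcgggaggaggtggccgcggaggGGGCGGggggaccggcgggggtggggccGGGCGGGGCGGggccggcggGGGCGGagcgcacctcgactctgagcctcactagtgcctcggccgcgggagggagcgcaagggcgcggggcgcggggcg
CDKN1A (chr6:36678464-36678763, plus strand): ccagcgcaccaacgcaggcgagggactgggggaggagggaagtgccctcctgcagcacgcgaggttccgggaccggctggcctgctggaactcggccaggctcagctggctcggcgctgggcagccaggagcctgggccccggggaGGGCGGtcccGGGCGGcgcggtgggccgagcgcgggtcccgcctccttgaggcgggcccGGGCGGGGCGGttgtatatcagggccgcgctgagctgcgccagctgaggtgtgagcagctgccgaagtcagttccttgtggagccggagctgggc
AKR1C3 (chr10:5048531-5048830, plus strand): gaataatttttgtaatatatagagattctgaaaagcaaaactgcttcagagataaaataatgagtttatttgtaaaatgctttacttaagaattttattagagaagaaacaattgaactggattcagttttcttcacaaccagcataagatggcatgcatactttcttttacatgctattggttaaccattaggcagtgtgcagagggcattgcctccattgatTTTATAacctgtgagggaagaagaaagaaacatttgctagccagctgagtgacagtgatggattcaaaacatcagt
RRP9 and MRTO4 held 1 E-box each, and NOP16 and RRP9 held 1 GC box each. CDKN1A held 4 GC boxes, the last 2 of which overlap, in a window of 74.3% G and C, and NOTCH1, which fell, also held 4, in a window of 77.0% G and C. AKR1C3 held a TATA match in a window of 33.7% G and C.

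A promoter window was found for 8598 of the 10386 genes (82.8%), for 1226 of the 1495 that rose (82.0%) and for 1207 of the 1458 that fell (82.8%). CACGTG was in the window of 15.2% of genes that fell, 8.40% of those that rose and 10.2% of all. GGGCGG was in 70.5%, 71.6% and 68.7%, CCAAT in 33.8%, 38.9% and 37.2%, and TATAAA in 4.97%, 6.20% and 5.75%, in the same order. These shares are descriptions, and no test was made. For the genes that changed at least 2-fold, and for the ribosome assembly list, under 80% had a window, so such shares are void there and not given.

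Parts of the T cell receptor complex fell, and several other T cell surface proteins with them. Each array reads the pooled RNA of a culture, so fewer cells with a transcript and less of it per cell cannot be told apart. CD3E fell from 9.85 and 10.15 to 8.89 and 9.02 (2.07-fold, adjusted p = 0.000926), and the signalling chain CD247 (CD3 zeta) from 13.60 and 13.62 to 12.98 and 12.85 (1.61-fold). CD3G fell 1.70-fold but kept its call only when SAHA A was left out, the adjusted p-values without the other arrays being 0.143, 0.0550 and 0.134. CD3D was dim and not called, at 5.62 and 5.65 against 5.42 and 5.72. The kinase ZAP70, which CD247 recruits, fell 1.81-fold. The scavenger-receptor relatives CD6 and CD5 fell 2.07-fold and 1.88-fold, and CD7 fell 1.97-fold, from 10.19 and 10.26 to 9.25 and 9.23. CD247, CD3G, CD5 and ZAP70 are described because of their place in the complex, after their values were seen.

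CD2, CD28, LAT, LCP2 and FYN, other parts of the pathway, were not called. The counts of this list, given below, stand beside 14.4% rises and 14.0% falls over all tested genes. LCK, the kinase that starts the signal, fell 1.38-fold with an adjusted p of 0.0362, and its adjusted p was 0.0711 to 0.183 with any 1 array left out. THEMIS, a T-lineage signalling protein, rose 2.24-fold in the full fit, but its adjusted p was 0.0568 to 0.121 with any 1 array left out. In all 8 of 22 tested genes fell and 3 rose, with a median of -0.13, and the falls numbered 7 or 8 over the 4 scalings and 6 or 7 with 1 array left out.

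NOTCH1, a receptor that drives early T cell development and T cell leukaemia, went from 11.13 and 11.23 to 9.75 and 9.47, 2.96-fold lower (adjusted p = 0.000144). Its target HES1 fell from 7.30 and 7.56 to 5.94 on both treated arrays (2.81-fold) and DTX1, a Notch regulator and target, from 8.67 and 8.81 to 7.25 and 7.53 (2.55-fold). All 3 also fell at 0.5 µM, by 0.90, 1.10 and 0.93 on the log2 scale. NOTCH3 was dim and not called. RUNX3, a factor of cytotoxic T cells, rose from 9.85 and 9.84 to 10.81 and 10.88, where WT had a mean of 10.71, and its second probe was not called. These genes belong to a list of 20 tested T cell and T leukaemia transcription factors and partners. Of these 4 rose, 6 fell and 10 were not called, against 14.4% rises and 14.0% falls over all genes.

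**Figure D4:**
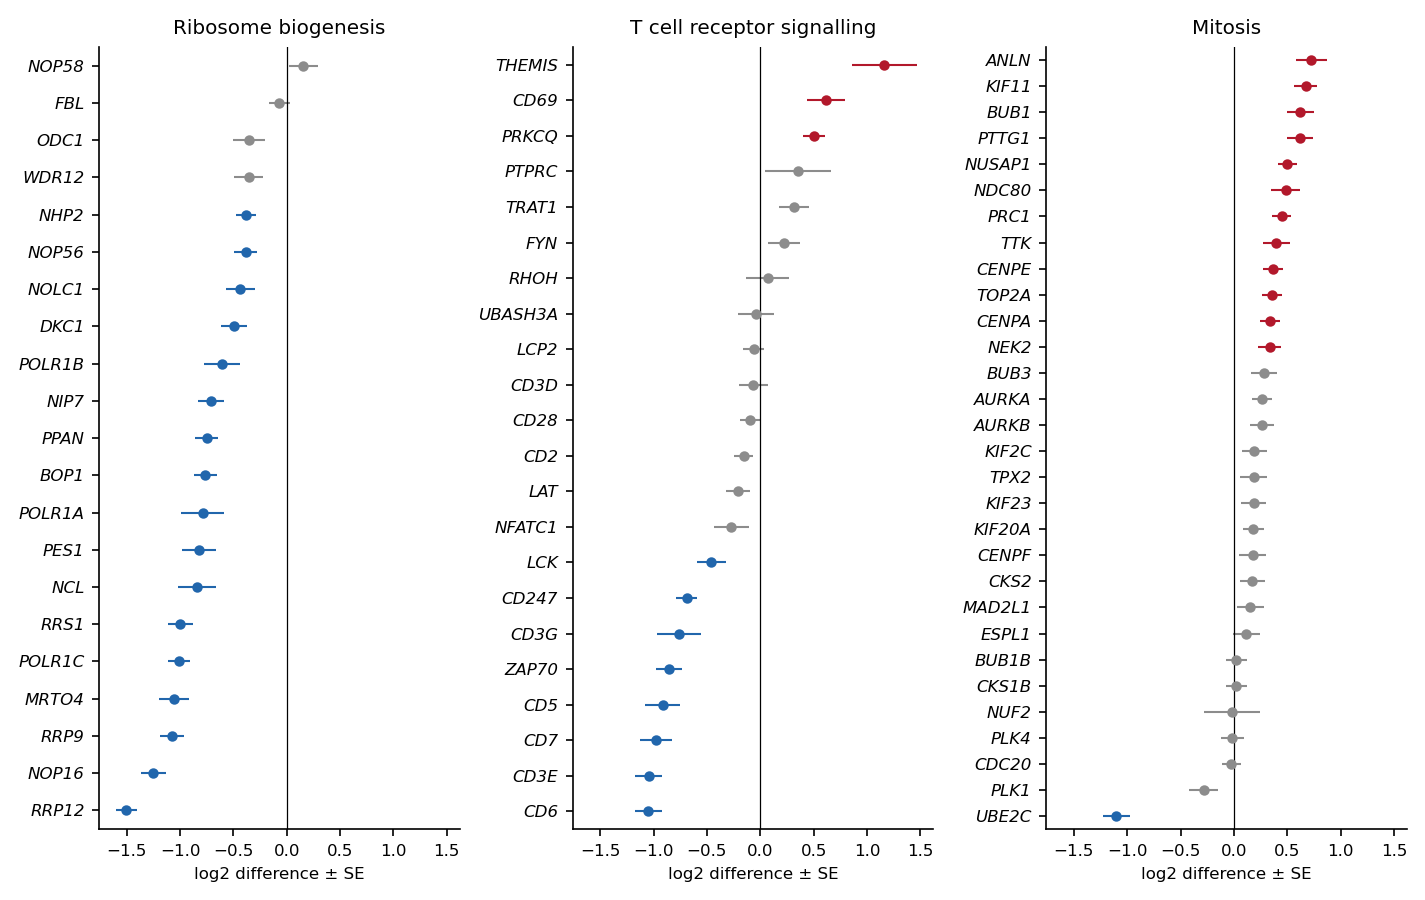
Log2 difference with its SE for the tested genes of ribosome biogenesis (left), T cell receptor signalling (middle) and mitosis (right), red where the gene rose, blue where it fell and grey where it was not called. Ribosome biogenesis lies almost wholly to the left of 0, the receptor genes are split, and mitotic genes lie mostly slightly to the right, with UBE2C as an exception.

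Genes known as p53 targets rose more often than fell, 6 against 1 of 11, with a median of 0.52. By comparison, 14.4% of all tested genes rose and 14.0% fell. Jurkat cells are known to carry mutant p53. TP53INP1 rose 2.25-fold (7.53 and 7.54 to 8.68 and 8.72), SESN1 1.86-fold, BTG1 1.86-fold and GADD45A 1.75-fold. The count of rises was 6 or 7 over the 4 scalings and 5 or 6 with 1 array left out. In redox control, the mitochondrial thioredoxin reductase TXNRD2 fell from 8.04 and 8.11 to 6.73 and 6.69 (2.57-fold, adjusted p = 9.80e-05), and glutathione peroxidase GPX1 fell 1.47-fold. TXNIP, an inhibitor of thioredoxin, rose 2.38-fold, from 8.52 and 8.50 to 9.84 and 9.68, but was called only without SAHA B, the other adjusted p-values being 0.0586, 0.0678 and 0.0695. MT3, a metal-binding metallothionein, rose 3.47-fold.

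The chaperone HSPA5 (BiP), the main chaperone of the endoplasmic reticulum, fell from 9.42 and 9.37 to 8.34 and 8.18, 2.20-fold (adjusted p = 0.000212), and was 1 of 3 falls among 15 genes of the endoplasmic reticulum stress response, with 1 rise. Genes of heat shock proteins and chaperones were mostly not called, with 1 of 16 up and 1 down, and so were proteasome genes, with 0 of 23 up and 2 down. The shares over all tested genes were 14.4% up and 14.0% down. Glycolytic genes rose in 6 of 18 and fell in 0, but the calls of ALDOC, HK1 and ALDOA were lost without any 1 array, with adjusted p-values of 0.0647 to 0.197, and 0 to 2 rises were called with 1 array left out. Among the housekeeping genes 2 of 11 rose and 1 fell, and their median was 0.05.

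Of 20 tested tubulins, actin regulators and intermediate filaments 8 rose and 0 fell, against 14.4% and 14.0% over all genes. TUBB2A rose from 9.08 and 9.21 to 10.65 and 10.79 (2.98-fold, adjusted p = 0.000117), CNN3, an actin-binding calponin, from 8.14 on both arrays to 9.57 and 9.63 (2.75-fold), TUBA4A 2.44-fold and MARCKS, which links actin to the membrane, 1.99-fold. TUBA4A had an adjusted p of 0.0509 without control B. The rises numbered 6 to 9 over the 4 scalings and 4 to 6 with 1 array left out. TUBB2A shares most of its sequence with other beta-tubulins.

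Of 15 tested neuronal genes 8 rose and 1 fell, but 5 of the 15 were undetected on both arrays of a group and were tested only through the other group. Among the 10 detected in both groups 4 rose and 1 fell, with a median of 0.13. DPYSL3, an axon guidance protein, rose from an undetected 4.56 and 4.60 to 6.44 and 6.36, at least 2.34-fold, the secretogranin SCG2 from 4.52 and 4.50 to 6.03 and 6.40, at least 2.06-fold, and the dendritic protein MAP2 from 4.90 and 4.99 to 6.07 and 5.96, at least 1.79-fold. APLP1, a relative of the amyloid precursor, rose 2.22-fold. Other neuronal genes, among them SNAP25, STMN2, SYT1 and GAP43, stayed undetected. The summed intensity of the 24 genes of the list with a probe was 14206 to 14607 without drug and 13796 to 14914 with it. This sum is on the linear scale, so bright genes set it and rises of dim genes such as DPYSL3 hardly show in it. Of 5 tested B cell markers 1 rose and 1 fell, and of the 4 detected in both groups 0 rose and 1 fell. The B cell factor EBF1 appeared, at 5.75 and 5.73 after an undetected 4.52 and 4.45, and was tested only through the treated arrays. The kinase BLK fell from 7.39 and 7.42 to 6.85 and 6.88 (1.46-fold lower), a call lost when signals were scaled before background correction. MS4A1 and PAX5 were undetected. The summed intensity of the 8 B cell markers was 528 to 531 without drug and 417 to 423 with it. HBA1 of the erythroid markers, which has a near-identical copy, rose 1.57-fold (adjusted p = 0.0688 without control B), and MUC1 of the epithelial markers fell 1.92-fold. The summed intensities were 295 to 298 and 312 to 317 for the erythroid, 362 to 390 and 282 to 300 for the epithelial and 1538 to 1809 and 1633 to 1644 for the myeloid markers, without and with drug. The part of other cell types in these results was not tested.

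In antigen presentation 6 of 13 tested genes rose and 2 fell (5 and 2 of the 12 detected in both groups), against 14.4% and 14.0% over all genes. HLA-DMB and HLA-DMA, the chains of the protein that loads peptides onto MHC class II, both rose, HLA-DMB from an undetected 4.87 and 4.90 to 6.99 and 6.91 (at least 3.42-fold) and HLA-DMA from 7.52 and 7.39 to 8.46 and 8.22 (1.84-fold). HLA-B rose from 7.24 and 7.43 to 8.56 and 8.45, a probe that may read other class I genes. TAPBP (tapasin), which loads class I, fell 1.94-fold (adjusted p = 0.00608), and its second probe was not called. Of 14 interferon response genes 3 rose and 2 fell, near the shares over all genes: IFI6 rose 1.73-fold and IFITM2 fell 1.66-fold. Of 11 genes of the NF-kappaB pathway, 1 rose and 2 fell. Cholesterol genes had 3 of 15 up and 2 down, led by the exporter ABCA1 (1.93-fold up) and the sterol sensor INSIG1 (1.69-fold up), with 2 to 5 rises and 0 to 3 falls over the 4 scalings and 2 to 3 rises and 0 to 1 falls with 1 array left out.

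**Figure D5:**
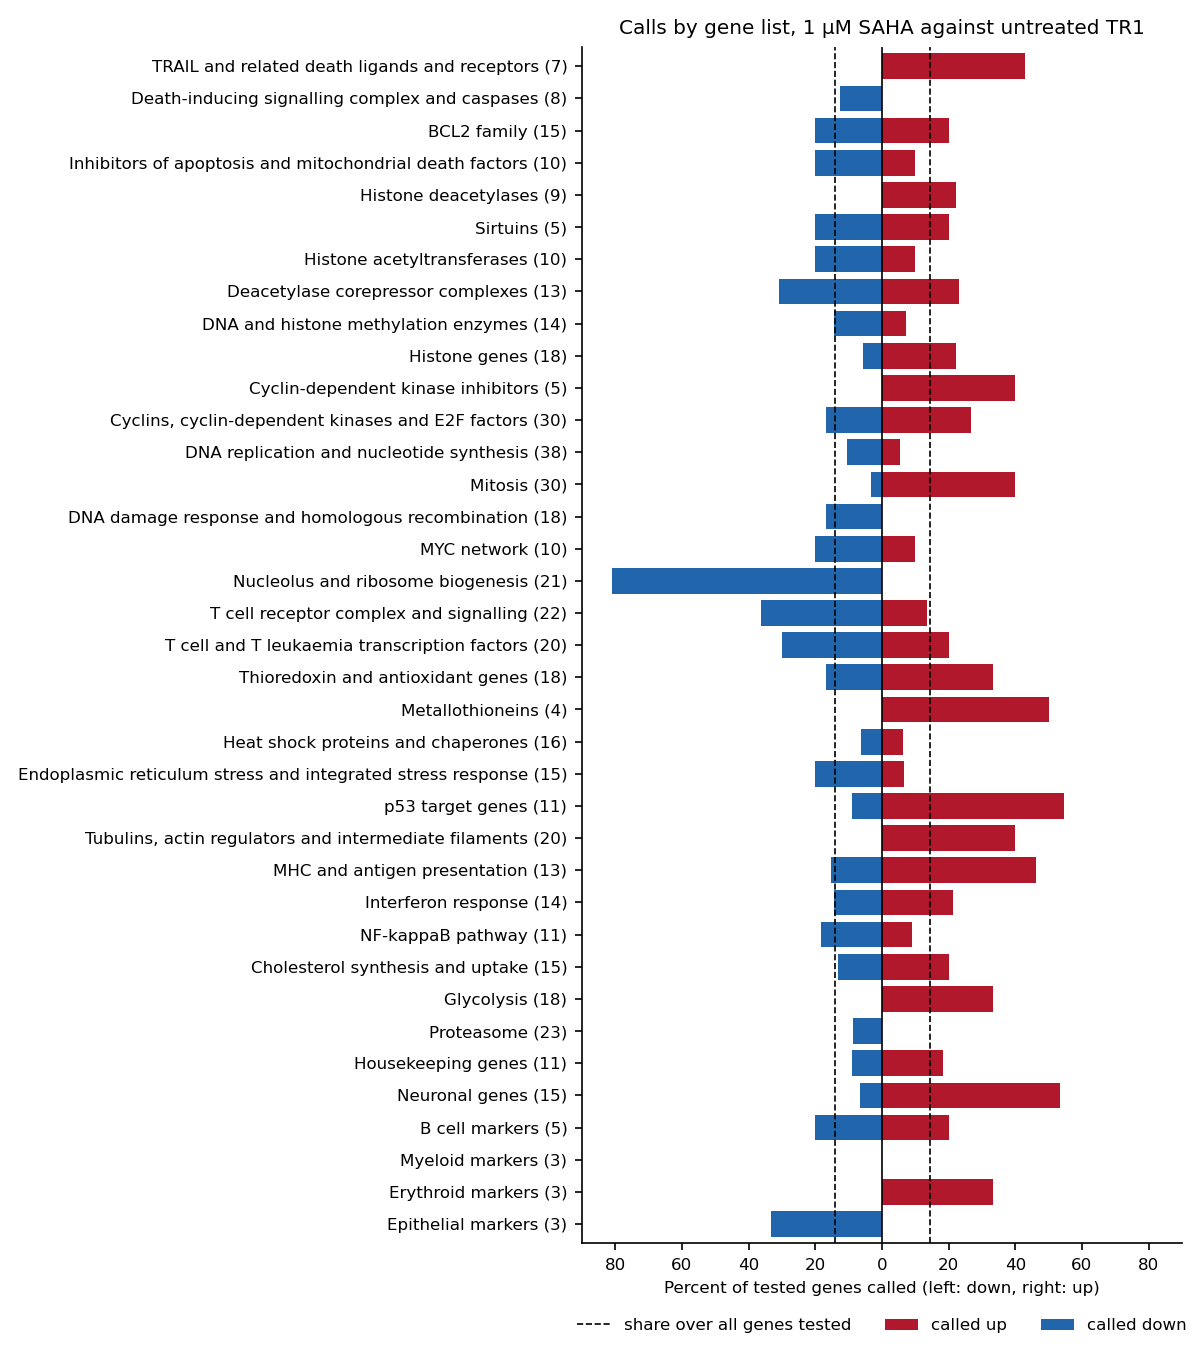
Percent of the tested genes of each list that rose (red, to the right) or fell (blue, to the left), with the number tested in parentheses and dashed lines at the shares over all tested genes (14.4% up and 14.0% down). Ribosome biogenesis extends farthest to the left, and p53 targets, neuronal genes and metallothioneins farthest to the right, where 5 of the 15 neuronal genes were detected in 1 group only and the metallothioneins number 4.

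Among the 144 called probes that the rule for naming genes selected, 93 kept their call on leaving out any 1 of the 4 arrays. Where a gene had further probes, these often had another outcome: of 357 other tested probes of genes whose brightest probe was called, 132 were called the same way, 219 were not called and 6 were called the other way. The further probes of EZH2, MXI1, ZAP70 and ALDOA were not called. Across both doses, 991 probes were called with the same sign at 0.5 and 1 µM, in comparisons that share the untreated arrays.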

How the data were processed

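The deposited table holds, per the file headers, a non-normalized probe intensity and a detection p-value for each array. RNA was isolated with RNAblue, amplified and biotin-labelled, per the labels' protocols. The submitters' processing notes name limma. The program that extracted the signals is not given in the sources used here. A second deposited table holds normalized intensity values of the same arrays, whose ranks match the non-normalized columns. The columns carry a group name and the letter A or B, so each was assigned to a group and not to a numbered sample.

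From the deposited intensities, limma 3.58.1 (R 4.3.3) computed log2 values with neqc (background from the detection p-values, offset 16, quantile normalization) on all 8 arrays. A model with a mean per group was fitted with lmFit and eBayes (two-sided tests, 4 residual degrees of freedom), over probes with a detection p-value below 0.05 on at least 2 of the 4 arrays. For a probe undetected on both arrays of a group, the fold is a lower bound, set against the dimmest signal of any detected probe or, if higher, its own. Of 22184 probes, 19715 had 1 gene symbol in the platform annotation and 2469 none. The genes named are the 15 largest rises and falls with a symbol, and up to 4 called members of the largest absolute difference per list. Both choices took only called probes for which both arrays of a group lay above both of the other. All tested members of the death pathway, deacetylase and kinase inhibitor lists may also be named. The comparison, the gene lists and the rule were chosen with earlier results of these data known. The number of arrays limits the precision. Tested on simulated data, the fit called 3 of 39 probes given a log2 change of 0.5, 32 of 44 given 1 and 40 of 40 given 2, with 2 false among 77 calls. Only 67, 67 and 66 of all probes were given these changes, far fewer than were called in the data. The shares found and the false calls therefore need not hold for the data. The alternatives tried were normalization, background, filter, model and leaving out arrays.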

Additional observations from a re-analysis of the deposited data

How the results depend on the processing

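All 3489 called probes kept the sign of their difference under every alternative in which they were tested. The number of changes of at least 2-fold, 455 in the main setting, was 194 without background correction, 194 on the deposited normalized values (with or without a replicate block) and 245 with an offset of 50, all of which shrink the changes of dim probes by construction. With signals scaled to the same median before background correction, 853 probes fell and 71.3% of the calls were rises. This alternative and the one with the median taken over the tested probes only were chosen after seeing the data. Under the demand that all 4 arrays detect a probe, 0 probes could appear or disappear. With 1 array left out, 1789 to 2355 probes were called, of which 924 to 1179 rose and 865 to 1176 fell, and 8 to 27 disappeared. The remaining alternatives gave 2976 to 4558 calls in all. The duplicates share only a letter or number, over 2 pairs, and deviations of same-letter arrays correlated at 0.23 over 12670 probes. A replicate block by letter gave 4006 calls, and a replicate block by label number on the deposited values 4558. Small differences are limited by the 2 arrays per group and by signal near background.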

Other observations

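Other families were grouped by symbol after the values of other genes were seen and are described without a test. Over all tested genes 14.4% rose and 14.0% fell. Of 77 tested mitochondrial ribosomal proteins, 22 fell and 3 rose, with a median difference of -0.19 (12 to 34 falls over the 4 scalings, 8 to 13 with 1 array left out). Of 32 aminoacyl-tRNA synthetases 11 fell and 1 rose (3 to 12 falls over the scalings, 3 to 7 with 1 array left out). Cytosolic ribosomal proteins mostly were not called, with 6 of 63 down and 0 up, below the share of falls over all genes. Among 277 genes with a zinc finger (ZNF) symbol, 36 fell, near the share over all genes, and 13 rose, but over the scalings 15 to 42 fell and 13 to 25 rose, and the sign of their median changed with the scaling. Of 7 tested septins 3 rose and 0 fell.

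VPREB1, which encodes the other part of the surrogate light chain with IGLL1, was looked up after the fall of IGLL1 was seen. It went from 8.67 and 8.91 without drug to 7.35 and 7.21 with it, 2.84-fold lower (limma adjusted p = 0.00322), and kept its call whichever of the 4 arrays was left out.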
